A study of Homo sapiens with 5 samples.

Results

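CASTOR2 encodes a cytosolic protein of the arginine-sensing family, and it was studied here with 9 other genes that carry the amino acid signal to the kinase complex mTORC1: SESN1, SESN2, DEPDC5, NPRL2, NPRL3, RRAGA, RRAGC, MTOR and RPTOR. The 10 members were taken by gene symbol: every probe set whose single symbol was one of them was used, 18 of the 54675 probe sets on each array. All 10 genes were among the 15374 measured genes. CASTOR2 had been picked because its signal was higher on all 4 stimulated arrays, so its difference from unstimulated cells is given as a description and supports nothing.

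The cells were MonoMac6, an established human monocytic line of leukaemic origin. There was 1 array of total RNA from unstimulated cells and 1 array for each of 4 eicosanoids, namely leukotriene B4 (LTB4), leukotriene C4 (LTC4), lipoxin A4 (LXA4) and lipoxin B4 (LXB4). Cells were cultured with the compound for 12 h at 100 nM, added from a DMSO stock. The sources used here do not say if unstimulated cells got the solvent. Runs of 4 values below follow the order LTB4, LTC4, LXA4, LXB4. Each condition is 1 array of 1 line, so no difference has a replicate error, no test was possible, and every comparison below is between arrays and not between conditions. In bulk RNA, fewer cells that make a transcript and less of it per cell cannot be told apart.

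mTORC1 is a kinase complex on the lysosome surface that drives protein synthesis and growth and holds back autophagy when amino acids are plentiful. Raptor brings it to a pair of Rag GTPases, and GATOR1, a GTPase-activating complex of DEPDC5, NPRL2 and NPRL3, switches the Rags off when amino acids run low. GATOR2 opposes GATOR1; the sestrins bind GATOR2 in the absence of leucine and the CASTOR proteins in the absence of arginine. CASTOR1 is the arginine sensor, and CASTOR2, its homologue, binds GATOR2 as well and has little affinity for arginine. In macrophages this branch links nutrient supply to the lysosome and to the metabolic state of the cell.

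On the 5 arrays 1 member stood far from the other 9. The CASTOR2 signal was 2.60-fold to 3.51-fold higher on the stimulated arrays, while none of the other 9 genes was 2-fold apart on its brightest probe set. NPRL3, SESN2 and MTOR were below the unstimulated array on all 4 stimulated arrays, by small amounts. Signals are intensities after each array was scaled by 1 factor. A floor of 48.7 marks the 50th percentile of mean signal, and values under it were raised to it for differences. Each value is set beside the spread, which is the root mean square difference between stimulated arrays over the 500 genes of nearest signal. That yardstick counts real differences among the eicosanoids as spread.

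CASTOR2 was read by 1 probe set, 225906_at, and its gene lies on chromosome 7. Its signal was 169 on the unstimulated array, 439 with LTB4, 593 with LTC4, 499 with LXA4 and 505 with LXB4. The unstimulated array was the low one, and the stimulated arrays lay close to each other. The log2 differences from unstimulated cells were 1.38, 1.81, 1.56 and 1.58 in the same order, against a spread of 0.27. Among the stimulated arrays the range was 0.43 on the log2 scale, with LTC4 highest and LTB4 lowest, and only that pair differed by more than the spread. All 4 differences rest on the same unstimulated array: with any stimulated array as the reference, 1 of the other 4 arrays was 2-fold apart, namely the unstimulated one.

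By its smallest difference of the 4, 1.38, CASTOR2 ranked 3 among the 15374 genes, behind PYGB and C14orf93, both of which lay under the floor in unstimulated cells. Among the 7616 genes with a mean signal at least as high as its own, 406, it ranked 1 and was the only gene at least 2-fold higher on all 4 arrays. Over all measured genes, 11 were at least 2-fold higher on all 4 arrays (0.0715%). The cut at 406 was set on CASTOR2 itself and includes the 4 arrays on which it was high. The others of the 11 had mean signals from 98.2 to 236, so that cut left all of them out. The rank among all genes was 4 after quantile normalization but 48 with the floor at the 30th percentile and 239 with no floor. These ranks describe the values that chose the gene.

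**Figure D1:**
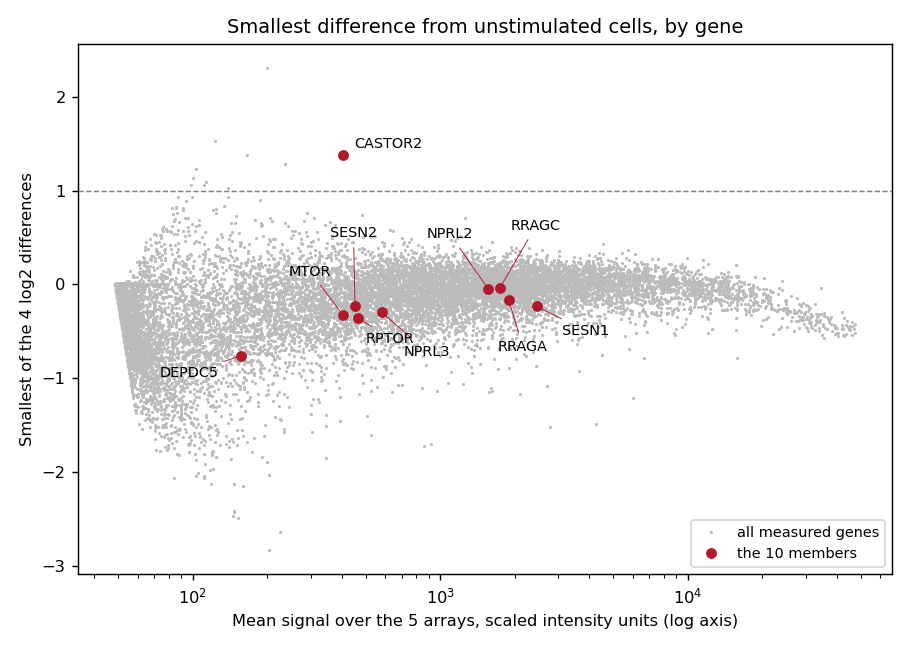
Each point is 1 measured gene, with its mean signal over the 5 arrays on the horizontal axis (log scale) and the smallest of its 4 log2 differences from the unstimulated array on the vertical axis; the dashed line marks 2-fold. CASTOR2 lies at 1.38 above genes of its signal, and the other 9 members (red) lie between -0.76 and -0.03.

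CASTOR2 has close relatives whose transcripts could share probes with it, and the gene table gives GATSL1 and GATSL2 as older names of the 1 gene, so the signal of 225906_at is uncertain as to copy. CASTOR1, the arginine sensor, was dim. Its brightest probe set had 102 on the unstimulated array, 50.9 with LTB4, 100.4 with LTC4, 114 with LXA4 and 48.3, under the floor, with LXB4. The differences of -1.01 with LTB4 and at least 2.11-fold lower with LXB4 were thus close to the floor, at a spread of 0.64. The other CASTOR1 probe set, mostly under the floor, gave 0.00, 0.17, 0.00 and 0.12, so the probe sets disagreed. CASTOR3P, a transcribed pseudogene of the family that was added after its values were seen, had signals between 6.91 and 88.3 on its brighter probe set, which crossed the floor. Neither relative was higher on all 4 arrays.

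**Figure D2:**
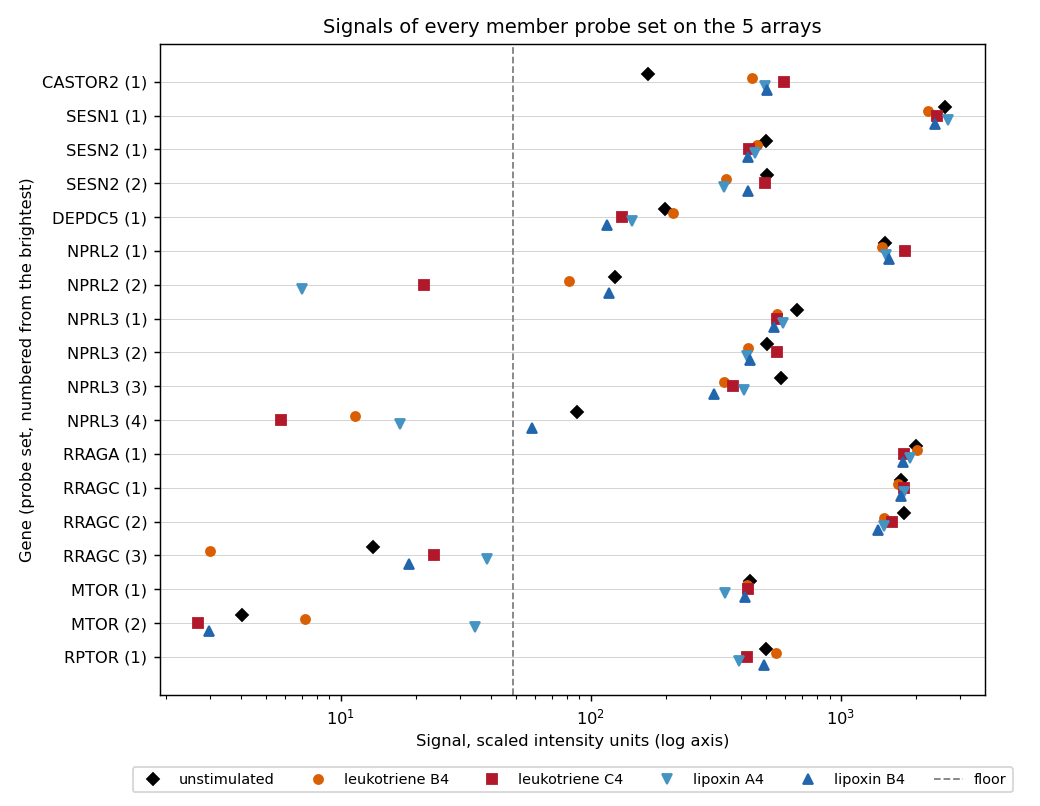
Signals of all 18 member probe sets (rows, numbered within a gene from the brightest) on the 5 arrays, in scaled intensity units on a log axis; the dashed line is the floor of 48.7. The 4 stimulated CASTOR2 signals, from 439 to 593, lie to the right of the unstimulated 169, and in most other rows the 5 arrays lie close together.

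The sestrins, stress-induced proteins that hold GATOR2 when leucine is scarce, were a little below unstimulated cells or level with them. SESN1, on chromosome 6, had 2612 on the unstimulated array and 2223, 2424, 2669 and 2369 with the 4 eicosanoids in order. The groups overlap, since LXA4 lay above the unstimulated array. Its log2 differences were -0.23, -0.11, 0.03 and -0.14, and the first was past its spread of 0.16.

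SESN2, which ATF4 and NRF2 induce under amino acid and oxidative stress, is on chromosome 1 and had 2 probe sets of like signal. The brighter, 223196_s_at, read 500.1 on the unstimulated array and 463, 427, 451 and 426 on the stimulated arrays in the same order. All 4 were lower, by log2 differences between -0.11 and -0.23, within the spread of 0.25. The other, 223195_s_at, read 507 and then 347, 495, 340 and 425. It was lower on all 4 arrays too, by -0.55 with LTB4 and -0.58 with LXA4, past its spread of 0.26, but by only -0.03 with LTC4 and -0.25 with LXB4. The probe sets thus had 1 sign and different sizes.

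In GATOR1, NPRL3 was below the unstimulated array on every stimulated array in 3 of its 4 probe sets. The gene lies on chromosome 16 and encodes the subunit that pairs with NPRL2. Its brightest probe set, 214273_x_at, read 665 on the unstimulated array and 557, 555, 588 and 542 with the 4 eicosanoids in order. All 4 were lower, with log2 differences of -0.26, -0.26, -0.18 and -0.30, of which 3 were past the spread of 0.24. The largest differences above the floor were on 203289_s_at, at 578 in unstimulated cells and 341, 370.0, 409 and 311 on the stimulated arrays. These log2 differences of -0.76, -0.64, -0.50 and -0.89 were each past the spread of 0.27 and short of 2-fold. Probe set 210672_s_at gave -0.26, 0.13, -0.26 and -0.23, so LTC4 was higher there. The dimmest, 229122_x_at, read 88.3 in unstimulated cells and 58.2 with LXB4, and lay under the floor on the other 3 arrays, at least 1.81-fold lower.

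DEPDC5, the largest GATOR1 subunit and the one that contacts the Rags, is on chromosome 22 and had 1 probe set. It read 197 on the unstimulated array, 213 with LTB4, 134 with LTC4, 146 with LXA4 and 116 with LXB4. The unstimulated and LTB4 arrays were high and the other 3 low. The log2 differences were 0.11, -0.56, -0.43 and -0.76, with a spread of 0.45 at this low signal, so those with LTC4 and LXB4 were past it.

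NPRL2, the catalytic subunit of GATOR1 (chromosome 3), was level on its bright probe set. That probe set, 203246_s_at, read 1506 in unstimulated cells, 1458 with LTB4, 1811 with LTC4, 1508 with LXA4 and 1551 with LXB4. LTC4 was the high array, at 0.27 against a spread of 0.19, and the other 3 differed by at most 0.05 in size. The dim 210373_at read 125 in unstimulated cells, 81.9 with LTB4 and 118 with LXB4, and lay under the floor with LTC4 and LXA4, at least 2.57-fold lower. The probe sets of NPRL2 thus disagreed.

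The promoters of SESN2 and NPRL3 are shown because all 4 arrays were lower for both genes, and that of RRAGC because it alone held an E-box. MTOR was lower on all 4 arrays too, and its window, with 1 GC box, is not printed. The windows are the 250 bases before the start of transcription from RefSeq (GRCh38.p14), printed along the gene's strand. SESN2 is chr1:28259268-28259517 (+), NPRL3 is chr16:138674-138923 (-) and RRAGC is chr1:38859773-38860022 (-). Capitals mark matches, on either strand, to the E-box CACGTG, which TFEB and other factors bind, the GC box GGGCGG of SP1, and TGATGNAA, the core of the amino acid response element bound by ATF4.
SESN2: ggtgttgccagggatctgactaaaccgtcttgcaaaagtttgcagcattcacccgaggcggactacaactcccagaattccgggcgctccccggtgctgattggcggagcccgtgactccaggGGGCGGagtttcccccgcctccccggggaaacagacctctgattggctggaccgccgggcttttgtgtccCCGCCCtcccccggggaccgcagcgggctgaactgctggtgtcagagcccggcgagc
NPRL3: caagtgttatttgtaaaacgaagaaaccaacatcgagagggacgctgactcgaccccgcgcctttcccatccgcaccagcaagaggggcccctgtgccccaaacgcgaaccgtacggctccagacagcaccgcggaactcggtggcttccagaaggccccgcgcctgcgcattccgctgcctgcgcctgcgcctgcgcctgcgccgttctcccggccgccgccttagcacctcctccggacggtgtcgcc
RRAGC: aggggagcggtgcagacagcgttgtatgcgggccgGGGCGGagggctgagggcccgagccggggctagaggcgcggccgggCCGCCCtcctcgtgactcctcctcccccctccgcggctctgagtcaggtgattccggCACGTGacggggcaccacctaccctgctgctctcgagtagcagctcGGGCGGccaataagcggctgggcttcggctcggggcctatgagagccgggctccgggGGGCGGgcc
RefSeq windows were held for 8 of the 10 members, 12 windows in all, some of which overlap. The GC box was in 10 of the 12 windows, or 6 of the 8 genes, and in 42.6% of the 35116 windows of that length in the table. The E-box was in 1 of 12, against 6.34% of the table, and starts at position -112 of RRAGC. TGATGNAA was in 0 of 12, against 3.14%. The SESN2 window holds 2 GC boxes, the NPRL3 window has none of the 3 motifs, and these matches are letters and not measured sites.

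The Rag GTPases, which recruit mTORC1 to the lysosome, differed little. RRAGA, on chromosome 9, read 1999 in unstimulated cells and 2015, 1794, 1896.5 and 1777 with the 4 eicosanoids in order. LTB4 lay above the unstimulated array and the other 3 below, all within the spread of 0.18, at log2 differences from -0.17 to 0.01. RRAGC, on chromosome 1, read 1732 on its brightest probe set and 1691, 1790, 1780 and 1740 on the stimulated arrays, at most 0.05 apart in size. Its other bright probe set, 218088_s_at, read 1792 and then 1487, 1599.5, 1493 and 1412, so all 4 were lower, by -0.16 to -0.34 at a spread of 0.19. A further RRAGC probe set lay under the floor on all 5 arrays.

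The kinase MTOR (chromosome 1) read 431 in unstimulated cells, 422 with LTB4, 426 with LTC4, 343 with LXA4 and 413 with LXB4. All 4 were lower, but only LXA4 stood apart, at -0.33 against a spread of 0.27, and the others lay between -0.02 and -0.06. Its other probe set was under the floor on all 5 arrays. RPTOR, which encodes raptor (chromosome 17), read 499 in unstimulated cells and 551, 422, 390 and 493 on the stimulated arrays. The arrays overlap around the unstimulated one, with log2 differences of 0.14, -0.24, -0.36 and -0.02, and only LXA4 was past the spread of 0.25.

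**Figure D3:**
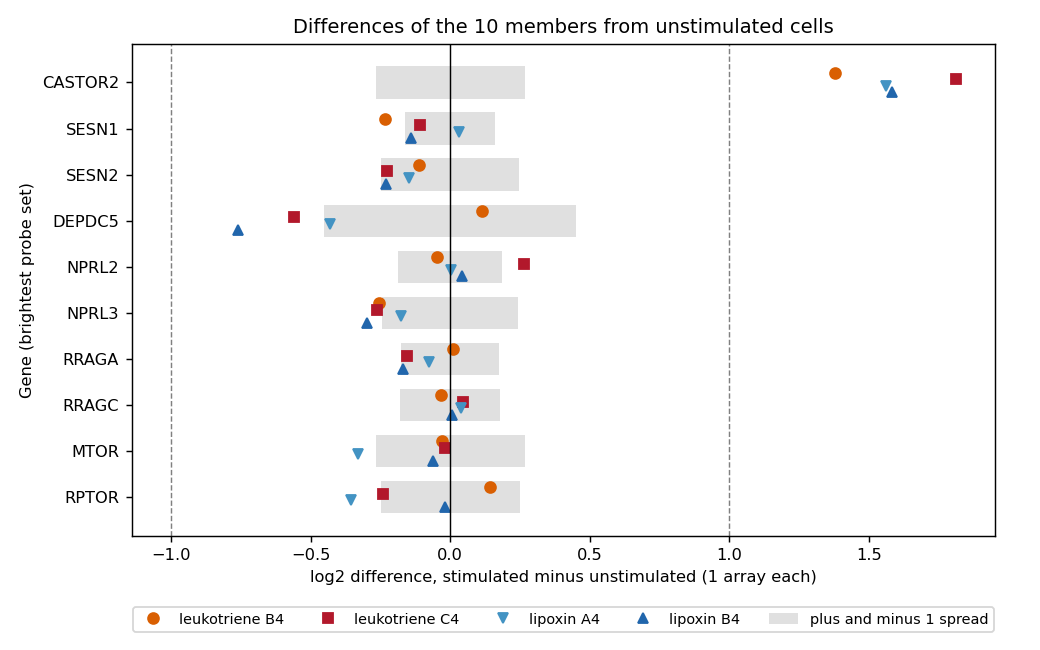
Log2 differences of the 10 members from the unstimulated array, 1 point per stimulated array, on the brightest probe set of each gene; grey bars span plus and minus 1 spread and dashed lines mark 2-fold. CASTOR2 lies between 1.38 and 1.81, and the other 9 genes between -0.76 and 0.27.

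Counted over the 10 members, 1 gene was at least 2-fold higher and 0 lower on each array. Over all measured genes, 2.43%, 2.85%, 2.39% and 2.47% were at least 2-fold apart with the 4 eicosanoids in order. The share higher was 0.702%, 1.2%, 0.702% and 0.507%, and the share lower 1.72%, 1.65%, 1.69% and 1.96%. As CASTOR2 was chosen on these values, nothing is read from its count. For the other 9, 0 of 9 past 2-fold on any array is set beside 6.28% of all genes past it on at least 1 array. Past the spread were 2, 3, 2 and 2 of the 9, beside 36.3%, 42.7%, 32.8% and 39% of all genes. Over the 4 arrays that is 9 of 36 differences, beside 37.7% of all genes' differences. Over all measured probe sets of these 9 genes it was 26 of 60. The matching share over all probe sets was not computed, so nothing is read from the 26 or from its contrast with the 9 of 36.

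The other 9 had a median log2 difference of -0.03 with LTB4, -0.16 with LTC4, -0.15 with LXA4 and -0.14 with LXB4, against 0.00, 0.06, 0.00 and 0.00 over all genes. Of 9, 6, 7, 6 and 7 were below 0, beside 44.5%, 36.7%, 43.5% and 45.6% of all genes. Below 0 on all 4 arrays were SESN2, NPRL3 and MTOR, 3 of 10 members beside 21.3% of all genes. After quantile normalization SESN1, RRAGA and RRAGC joined them, 6 of 10 beside 21.7%, and with the values as deposited SESN1 and RRAGA did, 5 of 10 beside 26.1%. The sign of the median was the same in these 3 scalings. Over the 16 measured member probe sets, 8 were lower on all 4 arrays (22.4% of all probe sets) and 2, of CASTOR2 and NPRL2, were 2-fold apart on at least 1 array (7.35% of all).

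The eicosanoids are structurally related: LTB4 is a dihydroxy acid, LTC4 a glutathione conjugate, and both lipoxins are trihydroxy acids. At the shared dose and time, 6 pairs of compounds gave 60 differences over the 10 members, of which 0 reached 2-fold. Of all genes, 2.43% were 2-fold apart between LTB4 and LTC4, 1.44% between LTB4 and LXA4 and 1.28% between LTB4 and LXB4. The shares were 2.21% and 2.15% between LTC4 and the lipoxins LXA4 and LXB4, and 1.31% between the lipoxins. The largest differences among members were in DEPDC5, between LTB4 and LXB4 (213 against 116, log2 0.87), LTC4 (0.67) and LXA4 (0.54). RPTOR was next, at 551 with LTB4 against 390 with LXA4 (0.50, spread 0.25). In all 16 of the 60 were past the spread, beside 29.4% of all genes' differences. The leukotriene and lipoxin arrays did not overlap in MTOR alone, by a gap of 0.03, which is 1 of 10 members beside 28.5% of all genes. With 1 array per compound these values give no interval for a difference, and they do not show that the compounds act alike.

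Other genes of the branch were read from lists by role, 60 genes of which 56 were measured. On the brightest probe sets 1 of the 56, CASTOR1, was 2-fold apart on at least 1 array (6.28% of all genes), lower with LTB4 and LXB4, and after quantile normalization 0 were. Dimmer probe sets passed 2-fold too: one of KICS2 was 2.96-fold, 2.56-fold and 2.08-fold higher with LTC4, LXA4 and LXB4. One of WDR59, a GATOR2 subunit named after its values were seen, was 2.38-fold and 2.18-fold higher with LTC4 and LXA4. Others were lower. One of FLCN was 2.34-fold lower with LTC4 and, under the floor, at least 2.74-fold lower with LXB4. One of RHEB, under the floor with LXA4, was at least 3.07-fold lower there. The 56 had median log2 differences of 0.13, 0.18, 0.08 and 0.09 with the 4 eicosanoids in order. Above 0 were 39, 40, 39 and 34 of them, and below 0 were 17, 16, 17 and 22. Of all genes, 44.5%, 36.7%, 43.5% and 45.6% were below 0. After quantile normalization the medians were 0.09, 0.09, 0.04 and 0.04, and with the values as deposited 0.10, 0.11, 0.05 and 0.07. On all 4 arrays 23 were above 0 (24.2% of all genes) and 4 below (21.3% of all genes). After quantile normalization 18 were above and 6 below, beside 21.1% and 21.7% of all genes, and as deposited 18 and 6, beside 19.4% and 26.1%.

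Among the other sensors, LARS1, the leucyl-tRNA synthetase, read 4054 in unstimulated cells and 4378 to 4824 on the stimulated arrays, so all 4 were higher, by 0.11 to 0.25. A dimmer LARS1 probe set was below 0 with both lipoxins, at -0.11 and -0.13. SAR1B, a COPII GTPase that also senses leucine, had 0.11 to 0.25 on its brightest probe set, but -0.07 with LTC4 on the mean of its probe sets. SAR1A had 0.04 to 0.37, and a probe set of nearly the same signal gave -0.13 with LTB4 and -0.06 with LXA4. The sign of both SAR1 genes thus depended on the probe set. In GATOR2, SEH1L, which also serves in the nuclear pore, differed by 0.08 to 0.27. SEC13, also a coat protein, had 0.01 to 0.20, and its 3 differences other than LTC4 turned below 0 after quantile normalization and as deposited. MIOS, a scaffold of GATOR2, had 0.16, 0.40, -0.14 and 0.44 on its brightest probe set. Another of like signal gave 0.19, -0.08, -0.01 and 0.06, so the probe sets disagreed. The GATOR2 median with the lipoxins was 0.01 and 0.02, and turned to -0.03 and -0.05 after quantile normalization.

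KICSTOR, the scaffold that holds GATOR1 on the lysosome, was read by 3 genes. KPTN was higher on all 4 arrays, by 0.08 to 0.48. ITFG2 had 0.10 to 0.68 on its brightest probe set and -0.75, -0.40, -0.15 and -0.70 on another of like signal, so it had no settled sign. KICS2 had 0.54, -0.21, 0.35 and 0.43 on its brightest probe set. In the Ragulator, which anchors the Rags, LAMTOR3 had 0.12 to 0.26 on its brightest probe set, but -0.13 with LXA4 on the mean of its probe sets. LAMTOR2 had 0.00 to 0.16 and LAMTOR5 0.01 to 0.16, and both were below 0 with LXA4 after quantile normalization and as deposited. LAMTOR4, named after its values were seen, had -0.21, 0.01, -0.23 and -0.08, with LTB4 and LXA4 past its spread of 0.16. The Rag and Ragulator median with the lipoxins was 0.06 on both arrays, and -0.00 and -0.01 after quantile normalization, so it had no settled sign there. In the folliculin complex, which activates RagC, FNIP1 had 0.08 to 0.38 on its brightest probe set, but -0.08 with LXA4 on the mean of its probe sets. FNIP2 lay between -0.01 and 0.34 and FLCN between -0.27 and 0.29 on their brightest probe sets. A dimmer FLCN probe set gave -0.44, -1.23, -0.26 and -1.45 at a spread of 0.63, the last against the floor.

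Of the other mTORC1 subunits, DEPTOR, an inhibitor of the kinase, had the largest differences. It read 144 in unstimulated cells, 271 with LTB4, 245 with LTC4, 202 with LXA4 and 234 with LXB4. The unstimulated array was the low one, as for CASTOR2. The log2 differences of 0.91, 0.77, 0.48 and 0.70 were past the spread of 0.38 and short of 2-fold. MLST8, a core subunit, was higher by 0.20 to 0.32. AKT1S1, which encodes the inhibitor PRAS40, lay between -0.14 and 0.25 on its brightest probe set. A dimmer AKT1S1 probe set gave -0.47, -0.47, -0.75 and -0.23 at a spread of 0.35, so the probe sets disagreed.

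Upstream of the kinase, RHEB, its GTPase activator, lay between -0.05 and 0.14 on its brightest probe set. Its dimmer probe sets disagreed. One gave -0.07, 0.80, 0.25 and 0.70 in order, at a spread of 0.40. Another gave 0.18, 0.67, -1.62 and -0.68, at a spread of 0.56, and lay under the floor with LXA4. TBC1D7 lay between -0.02 and 0.24 and TSC2 between -0.17 and 0.08. TSC1 read 821 in unstimulated cells and 615, 754, 660 and 569 on the stimulated arrays, so all 4 were lower, by -0.12 to -0.53 at a spread of 0.23; it was named after its values were seen. Among targets, EIF4EBP1, a translation repressor, was higher by 0.08 to 0.30, and EIF4EBP2 lay between -0.16 and 0.09 on its brightest probe set. The S6 kinase RPS6KB1 had -0.13, 0.33, 0.05 and 0.46 on its brightest probe set. Its other probe sets gave 0.30, 0.15, 0.20 and 0.26, and 0.00, 0.04, -0.08 and -0.26, so its sign depended on the probe set. In mTORC2, RICTOR had 0.02 to 0.27, its value with LTC4 turning to -0.01 after quantile normalization and -0.05 as deposited, MAPKAP1 lay between -0.11 and 0.27, and PRR5 had -0.19 to -0.44 on its brightest probe set, but 0.08 with LTC4 on the mean of its probe sets.

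Among the transporters that supply the pathway, SLC1A5, the glutamine carrier, was lower on all 4 arrays. It read 4655 in unstimulated cells and 3580, 3262, 3825 and 3121 on the stimulated arrays. No stimulated array overlapped the unstimulated one, and the differences of -0.38, -0.51, -0.28 and -0.58 were past the spread of 0.15. SLC7A1, the arginine and lysine carrier, had 0.16, 0.25, -0.03 and -0.20 on its brightest probe set. The next brightest gave -0.32, 0.20, 0.24 and 0.16. Its dimmest, near the floor, was lower on all 4 arrays, by -0.64 to -0.81 at a spread of 0.45. The sign of SLC7A1 thus depended on the probe set. SLC38A2 lay between -0.01 and 0.25 on its brightest probe set. The list as a whole had medians of 0.14, 0.21, -0.00 and -0.20, and the third turned to 0.03 after quantile normalization. Of the regulators of SESN2, ATF4 lay between -0.03 and 0.32, NFE2L2, which encodes NRF2, was higher by 0.20 to 0.33, and TRIB3, an ATF4 target, lay between -0.46 and 0.06.

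**Figure D4:**
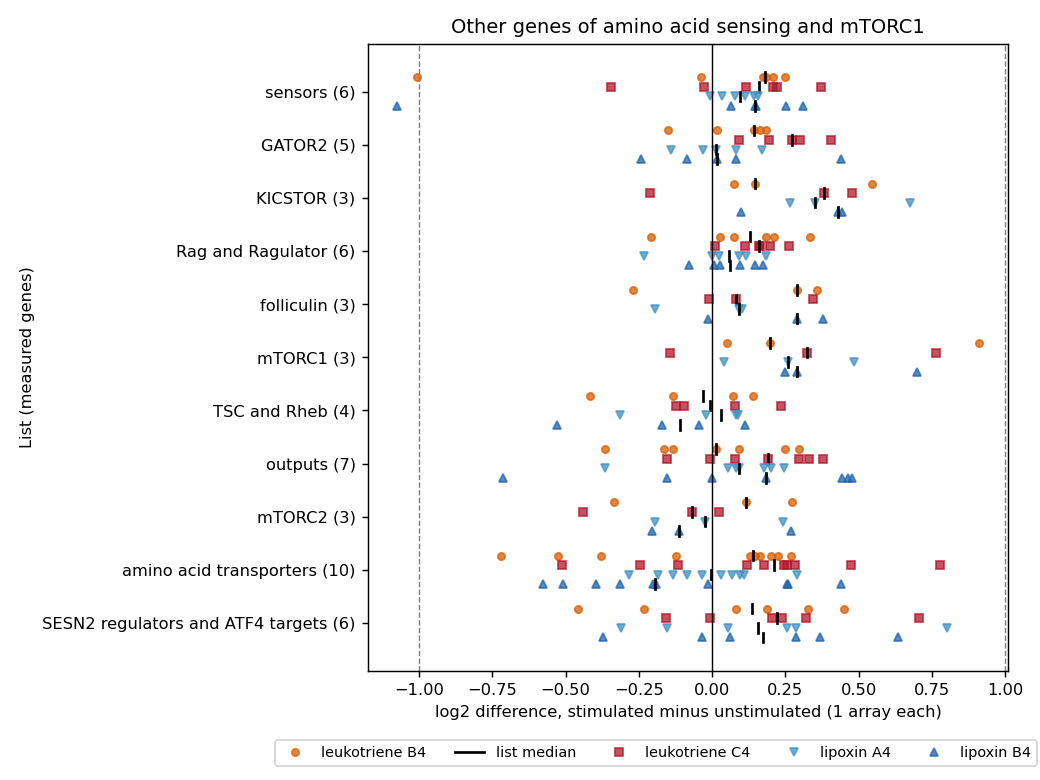
Log2 differences from the unstimulated array for the 56 measured genes of 11 lists by role (number measured in brackets), 1 point per gene and stimulated array; black ticks are list medians and dashed lines mark 2-fold. Only CASTOR1, in the sensor list, reaches 2-fold, with LTB4 (-1.01) and LXB4 (-1.07, against the floor).

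The genes nearest to CASTOR2 in pattern were sought among the 11017 other genes above the floor on all 5 arrays, by the root mean square distance of the 4 log2 differences. CCDC88B, which encodes a Hook-related protein, was nearest at 0.08. It read 70.9 in unstimulated cells and 184, 252, 196 and 193 with the 4 eicosanoids in order, log2 differences of 1.38, 1.83, 1.46 and 1.45. UBBP2, a ubiquitin pseudogene whose sequence is shared with its parent genes and whose value is therefore uncertain, followed at 0.31, then IKBKB-DT at 0.34, TFAP2C at 0.49 and ZNF319 at 0.55. All 5 had unstimulated signals between 63.7 and 102, nearer to the floor than CASTOR2, and each was read by 1 measured probe set. The distances rest on 4 differences that share the unstimulated array.

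The scaling factors applied here lay between 0.978 and 1.03. The 3' to 5' signal ratio of the control probe sets was 0.996 to 1.06 for GAPDH and 1.10 to 1.13 for ACTB, so these did not set the unstimulated array apart. Control probe sets of 18S ribosomal RNA did: the middle one was dimmest in unstimulated cells and higher by factors of 4.90, 16.5, 1.96 and 5.67 on the other arrays. The brightest of them was higher by factors of 2.98, 3.41, 1.90 and 2.15, and the remaining one by 3.65, 13.98, 1.63 and 4.62. The factors for CASTOR2 on the same arrays were 2.60, 3.51, 2.95 and 2.99, and the part of ribosomal RNA in that difference was not tested. Of 8 monocytic markers 6 had a probe set with 1 symbol, and LYZ, CD14, ITGAM and CSF1R were above the floor on all 5 arrays. FCGR1A was under the floor on all 5, and CD4, at 147 in unstimulated cells, was under it with LTB4 and LXB4. The summed signal of the monocytic markers, most of it LYZ, was 49941 in unstimulated cells and 36729 to 49825 on the stimulated arrays. Of 4 T cell, 4 B cell, 3 erythroid and 3 nerve and muscle markers, only CD79A and HBB were above the floor on all 5. The summed signal of the T cell markers was 82.2 in unstimulated cells and 101 to 175 on the stimulated arrays, that of the B cell markers 236 and 204 to 294, and that of the erythroid markers 194 and 145 to 183. For fibroblast and endothelial markers it was 5063 and 4898 to 5515, most of it PECAM1, which monocytes express, for epithelial markers 860.1 and 733 to 855, most of it KRT18, and for nerve and muscle markers 51.5 and 24.4 to 92.1. The part of these markers in the differences was not tested.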

How the data were processed

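Each probe set has 1 linear intensity per array, deposited by the authors. GCOS 1.4 is named in the submitters' processing notes, and the sources used here give neither its algorithm nor detection calls. Every array had a mean of 500.1 once 2% of values were trimmed at each end. Of the 54675 probe sets, 62 controls were set aside. Genes were named by the platform annotation from the 41091 probe sets with 1 symbol; symbols and chromosomes follow the RefSeq gene table (GRCh38.p14), in which 41037 gene identifiers matched.

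Signals were turned to log2, and arrays were brought to 1 common median of their brighter 50%. Values under the floor were raised to it, a probe set above it on at least 1 array was measured (29424 with 1 symbol), and a gene stood for its brightest probe set. A difference of 2-fold was counted. No test was run, since each group, taken from the sample titles, is 1 array; the number of arrays limits the precision. The counting was tested on simulated data. Members and lists were chosen with earlier results of these data known. The 10 members were always named, with list genes 2-fold apart or the 3 brightest of each list, and the 5 genes nearest to CASTOR2. Alternatives were other floors, scalings, probe sets and a fold of 1.5. Analyses used Python 3.11.15, numpy 2.4.6 and pandas 2.3.3.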

Additional observations from a re-analysis of the deposited data

Results flagged for a closer look

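Control probe sets for 18S ribosomal RNA enter no comparison and were brighter on every stimulated array than on the unstimulated one. After the scaling used for genes, the middle 18S probe set was 4.90-fold over it with LTB4, 16.5-fold with LTC4, 1.96-fold with LXA4 and 5.67-fold with LXB4. In the same order the brightest 18S probe set gave 2.98, 3.41, 1.90 and 2.15, and the remaining one 3.65, 13.98, 1.63 and 4.62. The part of ribosomal RNA in the differences of CASTOR2 was not tested.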

How the results depend on the processing

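CASTOR2 was higher on all 4 arrays under the 7 alternatives of floor, scaling and probe set, but several of these could not change its values. It has 1 probe set, not of the x_at or s_at kind, so the probe set settings left it as it was. Every signal of it lay above the main floor, so a lower floor or none changed nothing either. Only the higher floor and the other scalings moved its differences. CASTOR2 was also picked for being higher on all 4 arrays, so that sign is no independent check. Its log2 differences lay between 1.35 and 1.85, except with the floor at the 70th percentile (signal 243), above its unstimulated value, where the differences are bounds of 0.85, 1.28, 1.03 and 1.05 with the 4 eicosanoids in order. That floor left 0 members 2-fold apart with LTB4, instead of 1. Without probe sets ending in x_at or s_at, 6 members were measured. With LTC4 and with LXA4 2 were 2-fold apart, CASTOR2 and NPRL2, the latter now standing on its dim probe set. In that setting 417 and 316 of all 12459 genes were apart on these arrays. At a fold of 1.5, 2 members, CASTOR2 and DEPDC5, were apart with LXB4, beside 1703 of all 15374 genes. With a stimulated array as the reference, CASTOR2 was 2-fold from 1 array each time, instead of 4. Members lower on all 4 arrays numbered 6 after quantile normalization, 5 with the values as deposited and 5 with the mean of all probe sets, instead of 3. The share of all genes was 21.7% after quantile normalization and 26.1% as deposited, instead of 21.3%. For the mean of all probe sets that share was not computed, so nothing is read from its count.

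For the other genes of the branch, the 1 gene counted with LTB4 and with LXB4, CASTOR1, was 0 on both arrays with the floor at the 70th percentile, after quantile normalization, with the mean of all probe sets and without x_at and s_at probe sets. In the last setting its difference with LXB4 turned to 0.12. At a fold of 1.5 the counts were 3, 3, 2 and 4 of 56, beside 1628, 1875, 1518 and 1703 of all 15374 genes. Over all genes the count with LTB4 went from 373 to 21 with the higher floor, and to 2368 and 4359 with the floor at the 30th percentile and with none. The cause was not tested.

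No paired analysis was possible because each condition has 1 array. Signals near the floor limit CASTOR1 and the second probe set of NPRL2.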
